A study of Homo sapiens with 6 samples.

Results

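A set of 10 genes of the actin contractile apparatus of smooth muscle was followed in SKOV3 cells, an established human ovarian cancer cell line. They were ACTA2, ACTG2, TAGLN, CNN1, CNN2, MYL9, MYLK, TPM1, TPM2 and CALD1, taken by gene symbol from a table of 29185 genes, and all 10 were present. Poly(A) RNA was sequenced from 3 libraries of cells in which KLF5 had been silenced (sh-KLF5, labelled KLF5 knockdown) and 3 libraries of control cells (sh-NC). Per the methods of the study, the silencing sequence was carried by a lentivirus made with the vector pLKO.1-EGFP-Puro and stable lines were selected with puromycin, whereas the labels give the genotype of the control cells as WT. Neither source says whether a stable line came from 1 clone, how many silencing sequences it carried, or whether the 3 libraries of a group came from separate cultures, so that the errors below measure the spread between libraries, which may be technical. The genes were chosen by their values in this same comparison, MYL9 for a fall and ACTA2 for a rise. Their differences between the groups are therefore a description, and no p-value is given for any of the 10.

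Contraction in smooth muscle, and tension along the stress fibres of other cells, comes from myosin II pulling on actin filaments. Myosin II becomes active when its regulatory light chain is phosphorylated, by myosin light chain kinase in response to calcium and calmodulin or by the kinases ROCK1 and ROCK2, and is switched off by myosin phosphatase. Tropomyosins, calponins, caldesmon and transgelin bind along the actin filament and set how it meets myosin. Many genes of this set hold a CArG box, the DNA element bound by serum response factor (SRF). The coactivators of SRF include the myocardin family (MYOCD, MRTFA and MRTFB), of which MRTFA and MRTFB respond to actin dynamics and to TGF-beta. KLF5 is a zinc finger transcription factor that is also known from remodelling vascular smooth muscle.

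The libraries held between 15852319 and 17543896 reads on genes, and a gene without reads could have had up to 3, or 0.171 to 0.189 CPM, that is counts relative to the library total. The silenced gene had 34.8% of its control level in sh-KLF5 (log2 fold change -1.53, standard error 0.12, limma adjusted p = 2.47e-07, lower in 3 of 3 libraries). Within sh-KLF5, library 1 stood apart from the others. The chi-square per degree of freedom over genes was 23.5 and 30.4 between library 1 and libraries 2 and 3, 10.4 between libraries 2 and 3, and 4.33 to 8.41 among the sh-NC libraries. Library 1 had the lowest of the 3 sh-KLF5 values in 38.8% and the highest in 40.5% of the 15803 genes with enough reads to be tested. Values without this library are given for the tested genes of the set and for some, not all, of the other genes.

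The label of an ovarian cancer cell was compared with markers. Among 12 markers of ovarian carcinoma epithelium, 11 were listed and WT1 was not. Their summed level ranged from 678 to 811 FPKM (reads scaled to exon length and library total) in sh-NC and from 372 to 481 FPKM in sh-KLF5. The sum was carried by the keratins KRT7 (475 FPKM in sh-NC), KRT8 (192) and KRT18 (69.6). The other listed markers had means of at most 5.35 FPKM (MSLN) in sh-NC, with PAX8 at 2.89, KRT19 at 0.159 and MUC16 at 0.12 FPKM. By the rule given below, KRT8 (log2 fold change -1.17, limma adjusted p = 4.35e-05) and MUC16 (-1.54, limma adjusted p = 0.00737) were called lower among 10 tested. Over all tested genes, 3.37% were called lower. No marker was called higher. KRT7 (-0.78, limma adjusted p = 0.00112), KRT18 (-0.64, limma adjusted p = 0.00343), MSLN (-0.71, limma adjusted p = 0.00868) and CLDN4 (-0.85, limma adjusted p = 0.0443) were also lower, short of the fold threshold. Markers of smooth muscle were uneven. MCAM (9.33 FPKM in sh-NC), SYNM (8.10 FPKM) and SMTN (4.42 FPKM) were expressed, whereas DES had at most 3 reads in every library, and MYOCD, the coactivator particular to muscle, had 4, 0 and 0 reads in sh-NC and 2, 0 and 3 reads in sh-KLF5. Of the leukocyte markers, PTPRC, CD68 and LYZ had at most 3 reads in every library, as had the endothelial markers CDH5 and CLDN5.

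Among the 10 genes, MYL9 was nearly absent after KLF5 silencing, while ACTA2, MYLK and TPM1 were 2.22- to 2.92-fold higher and did not overlap between the groups. TAGLN, CNN2, TPM2 and CALD1 overlapped between the groups, and ACTG2 and CNN1 had at most 4 reads in any library. A gene was called when limma on log2(normalized count + 1) gave an adjusted p under 0.05 with a log2 fold change above 1 or below -1. By this rule 3 of the 8 genes tested were called higher, against 1.9% of all tested genes, and 1 was called lower, against 3.37%. In the same way, 3 of the 10 had every sh-KLF5 library above every sh-NC library, against 15.4% of all tested genes, and 1 had every library below, against 15.9%. Since the choice of genes used this comparison, nothing is read from these shares. The median log2 fold change of the 8 tested genes was 0.16, against -0.002 over all tested genes.

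**Figure D1:**
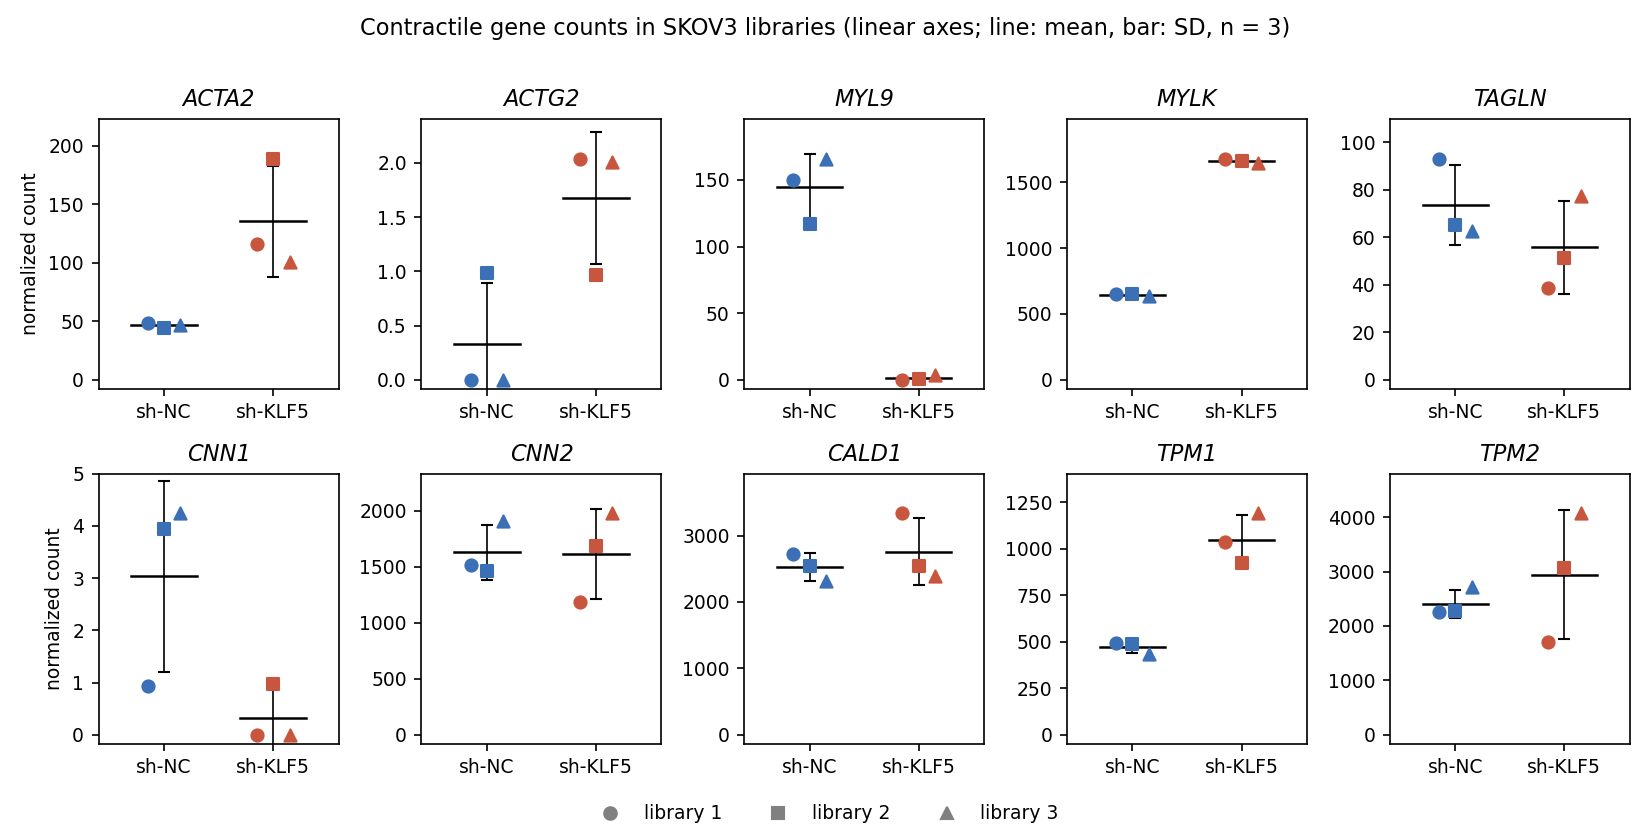
Normalized counts (linear axes starting at 0) of the 10 genes in each library; points are libraries, lines are means and bars are SD (n = 3). MYL9 sits at 4.01 or less in sh-KLF5 against 117 or more in sh-NC, whereas ACTA2, MYLK and TPM1 lie above their controls in all 3 libraries and TPM2 spreads from 1700 to 4068 in sh-KLF5.

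MYL9 (ENSG00000101335) encodes the regulatory light chain typical of smooth muscle myosin and lies on chromosome 20 from 36541484 to 36551447 on the + strand of GRCh38. Control libraries 1, 2 and 3 held 150, 117 and 166 normalized counts, against 0, 0.97 and 4.01 in libraries 1, 2 and 3 of sh-KLF5. All sh-KLF5 libraries were far below all sh-NC libraries, and the sh-KLF5 values came from 0, 1 and 4 reads. The control mean was 144.2 ± 24.6 and the sh-KLF5 mean 1.66 ± 2.09 (SD, n = 3 each), which left 1.15% of the control level. Over the summed reads, 436 in sh-NC and 5 in sh-KLF5, the ratio of the depth-scaled levels was 86.2, with an exact 95% interval of 36.6 to 267 that covers counting error only. The log2 fold change of -6.07 (standard error 0.51) depends on the pseudocount of 1, and was -7.55 with a pseudocount of 0.1 and -4.52 with 5. Without sh-KLF5 library 1, the library with no reads, it was -5.52. No exonic base of MYL9 overlapped another gene, and none of its 50-base words occurred in a transcript of another gene, so that its reads can be told from those of its isoforms MYL12A and MYL12B.

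The other regulatory light chains carried nearly all of the family in both groups. Counted per kilobase of exon, MYL12B made up 76.1% ± 0.644 of the 3 regulatory light chain genes in the controls and 74.7% ± 0.655 after silencing (SD, n = 3 each), and MYL12A 22.3% ± 0.428 and 25.3% ± 0.677. MYL9 contributed 1.58% ± 0.217 in sh-NC and 0.0175% ± 0.0218 in sh-KLF5. The summed level of the family was 195 ± 4.78 FPKM in the controls and 210 ± 16.0 FPKM (SD, n = 3) in sh-KLF5. The near loss of MYL9 thus stood beside a family total that was not lower. Neither MYL12A (log2 fold change 0.28, standard error 0.11, limma adjusted p = 0.133) nor MYL12B (0.07, standard error 0.11, limma adjusted p = 0.737) was called.

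Markers of fibroblasts, cells that also use MYL9, changed in both directions. Of the 9 fibroblast markers, 8 were tested. Of these, 5 were called lower (COL1A2, COL3A1, DCN, PDGFRA and THY1), against 3.37% of all tested genes. FAP was called higher (log2 fold change 1.9, limma adjusted p = 0.00029), as were 1.9% of all tested genes. COL1A1 (0.30) and LUM (-0.45) were not called. THY1, a surface glycoprotein, had 108, 53 and 56 reads in sh-NC and 0, 1 and 1 in sh-KLF5, and PDGFRA, a growth factor receptor, had 99, 70 and 56 reads in sh-NC and 0, 0 and 2 in sh-KLF5. The summed level of the list ranged from 12.3 to 18.7 FPKM in sh-NC and from 5.74 to 12.6 FPKM in sh-KLF5, so the ranges overlapped. In bulk RNA, fewer cells that express a gene and less RNA per cell cannot be told apart, and the part of these markers in the fall of MYL9 was not tested.

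MYLK (ENSG00000065534), the calcium-dependent kinase that phosphorylates the regulatory light chain, lies on chromosome 3 from 123610049 to 123884331 on the - strand. It had normalized counts of 651, 649 and 633 in the controls and 1679, 1663 and 1649 in sh-KLF5. The libraries of each group lay within 1.03-fold of each other in sh-NC and within 1.02-fold in sh-KLF5, and the groups were widely apart. The control mean was 644.5 ± 9.63 and the sh-KLF5 mean 1664 ± 14.7 (SD, n = 3 each), 2.58-fold higher, with a log2 fold change of 1.37 (standard error 0.11). It stayed between 1.35 and 1.37 when any 1 library was left out. Of the 50-base words of MYLK, 0.985% also occurred in transcripts of other genes, mostly in the pseudogene MYLKP1.

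MYLK was thus opposite in direction to MYL9, a substrate of the kinase it encodes. Among the 4 kinase genes of the family, MYLK took 73.0% ± 2.85 of the reads per kilobase in the controls and 92.6% ± 1.98 after silencing (SD, n = 3 each). The kinases summed to 2.42 ± 0.156 FPKM in the controls and 4.94 ± 0.247 FPKM after silencing. MYLK2, the skeletal muscle kinase, had 21, 22 and 18 reads in sh-NC and 4, 15 and 10 in sh-KLF5, and was not called (log2 fold change -1.14, standard error 0.47, limma adjusted p = 0.13). MYLK3, the cardiac kinase, and MYLK4 had at most 27 reads in any library. Without division by exon length, the share of MYLK was 93.1% in the controls and 98.3% after silencing, since its annotated exons are long (22167 bases over 21 transcripts).

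ACTA2 (ENSG00000107796), smooth muscle alpha actin, lies on chromosome 10 from 88935074 to 88991339 on the - strand. Normalized counts of ACTA2 reached 48.4, 44.3 and 46.7 in the controls and 116, 189 and 101 in sh-KLF5. All sh-KLF5 libraries were above all sh-NC libraries, with library 2 the highest at 1.87-fold the lowest. The control mean was 46.48 ± 2.05 and the sh-KLF5 mean 135.6 ± 47.1 (SD, n = 3 each), 2.92-fold higher. The log2 fold change was 1.47 (standard error 0.24), and was 1.56 without sh-KLF5 library 1 and 1.21 without library 2. ACTA2 shares 12.8% of its exonic bases with FAS, a death receptor gene on the opposite strand. FAS had normalized counts of 430, 426 and 385 in sh-NC and 972, 731 and 645 in sh-KLF5 (log2 fold change 0.90), which did not overlap either. The sources used here do not say whether reads were counted by strand, and the part of FAS reads in the ACTA2 counts was not tested.

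Smooth muscle actin remained a trace of all actin in SKOV3 cells. ACTG1 made up 65.0% ± 0.16 and ACTB 34.9% ± 0.156 (SD, n = 3) of the 6 actin genes per kilobase in sh-NC, and 65.8% ± 1.7 and 34.1% ± 1.67 in sh-KLF5. ACTA2 contributed 0.0392% ± 0.0048 in sh-NC and 0.105% ± 0.0487 in sh-KLF5. ACTG2 (ENSG00000163017), the enteric smooth muscle actin on chromosome 2, had 0, 1 and 0 reads in sh-NC and 2, 1 and 2 reads in sh-KLF5, too few to be tested. The skeletal and cardiac actins ACTA1 and ACTC1 had at most 13 reads in any library.

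ACTA2 and MYLK were the higher genes with a promoter window in which a CArG box or a near form of it was found. Their 250 bases before the annotated start (RefSeq, GRCh38) are shown for that reason. The remaining higher gene, TPM1, had 1 window, which held neither form. The other ACTA2 window, around a start 2 bases inside the gene, held neither form as well. Whether the boxes have a part in the higher levels was not tested. The ACTA2 stretch is chr10:88952774-88953023 on the - strand, before a start that lies 38566 bases inside the gene. The MYLK stretch is chr3:123620549-123620798 on the - strand, before an internal start that lies 263783 bases inside the gene and 10499 bases from its 3' end. It was the only MYLK window, so no start nearer the beginning of the gene was searched. Whether transcripts from this internal start encode the kinase was not examined. Capitals mark a CArG box in MYLK and, in ACTA2, boxes with a C or G at 1 of the 6 middle letters, a form searched for after the strict form had been seen. The gene totals do not say which start was used.
ACTA2: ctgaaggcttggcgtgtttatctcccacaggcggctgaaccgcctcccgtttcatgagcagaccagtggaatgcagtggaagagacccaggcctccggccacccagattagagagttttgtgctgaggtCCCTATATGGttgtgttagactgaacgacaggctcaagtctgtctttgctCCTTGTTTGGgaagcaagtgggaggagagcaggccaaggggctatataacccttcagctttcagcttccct
MYLK: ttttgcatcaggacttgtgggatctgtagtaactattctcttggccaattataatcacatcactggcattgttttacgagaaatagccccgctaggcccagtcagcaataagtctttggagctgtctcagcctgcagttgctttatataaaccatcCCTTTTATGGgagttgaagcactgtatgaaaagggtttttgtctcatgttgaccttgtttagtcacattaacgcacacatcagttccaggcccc

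A strict CArG box was also found before ACTG2, which was at the limit of detection, and before CNN2, which did not differ beyond the spread of its libraries. These boxes are shown with 5 bases on each side. For ACTG2 they lie at chr2:73892898-73892907 and chr2:73892935-73892944 on the + strand, and for CNN2 at chr19:1026519-1026528 on the + strand.
ACTG2 first box: aaccaCCTTATATGGtaata
ACTG2 second box: gctggCCTTTTTAGGgactt
CNN2 box: ccaggCCTTATAAGGacatt
The boxes begin 110 and 73 bases before the start in ACTG2, 89 bases before it in CNN2, 94 bases before it in MYLK, and 121 and 71 bases before it in ACTA2. Of the 10 genes, 8 had windows of 300 bases in the reference table (13 windows), MYL9 and TAGLN having none. A strict CArG box occurred on either strand in windows of 3 of these 8 genes and in 1.29% of the 35116 windows of all genes, and the near form in 2 genes (ACTA2 and CALD1) and 6.94% of windows. The letters CACCC, which zinc finger factors of the KLF family are known to read, occurred in windows of 5 genes against 59.9% of all windows. GGGCGG occurred in 6 genes against 45.0% of windows, and TATAA in 5 against 20.4%, in ACTG2 and CNN2 also inside a CArG box. Counted by window, as the shares of all genes are, the strict box lay in 3 of the 13 windows and the near form in 2. CACCC lay in 9 of them, GGGCGG in 7 and TATAA in 6. A gene with several windows had more chances of a match, and a match is a run of letters, not a site shown to be bound.

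**Figure D2:**
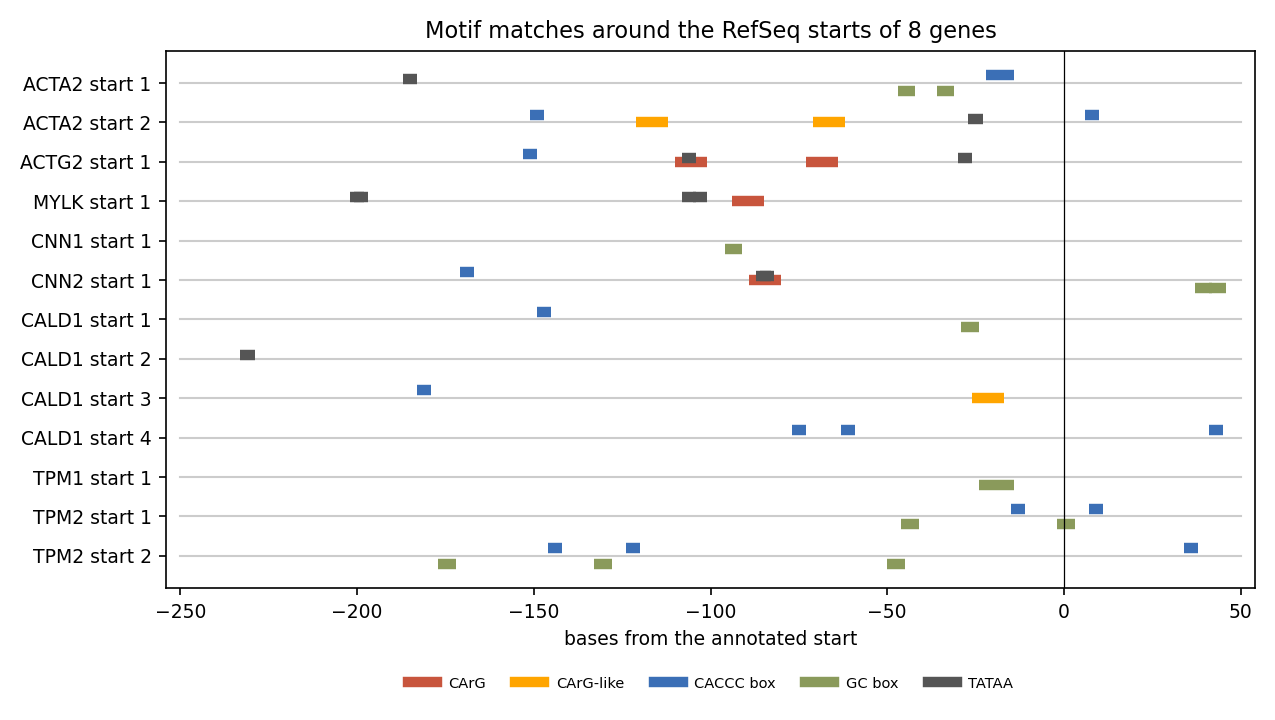
Matches of 5 motifs on either strand, by distance in bases from the annotated start (horizontal axis), in the 13 windows of 8 genes. CArG boxes (red) lie between 110 and 73 bases before the start in ACTG2, MYLK (internal start) and CNN2. Near forms (orange) lie 121 and 71 bases before the inner ACTA2 start and 26 bases before a CALD1 start.

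TPM1 (ENSG00000140416), a tropomyosin that runs along the actin filament, lies on chromosome 15 from 63042632 to 63071915 on the + strand. The normalized counts of TPM1 were 493, 488 and 436 in the controls and 1033, 923 and 1189 in sh-KLF5. Every sh-KLF5 library was above every sh-NC library, and library 1 did not stand out. The control mean was 472.4 ± 31.6 and the sh-KLF5 mean 1048 ± 134 (SD, n = 3 each), 2.22-fold higher, with a log2 fold change of 1.14 (standard error 0.13), and 1.15 without sh-KLF5 library 1. The antisense gene TPM1-AS covers 16.1% of its exonic bases and had at most 2 reads in any library.

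TPM2 (ENSG00000198467), on chromosome 9 from 35681992 to 35690121 on the - strand, was the tropomyosin of the set with the highest level and the least even libraries. It had normalized counts of 2259, 2268 and 2710 in the controls and 1700, 3062 and 4068 in sh-KLF5. The sh-KLF5 libraries lay on both sides of the controls, with library 1 below and libraries 2 and 3 above all of them. The log2 fold change was 0.20 (standard error 0.27), 0.55 without sh-KLF5 library 1 and -0.07 without library 3. The SD of the log2 values within sh-KLF5 was 0.642, larger than in 92.5% of tested genes, whose median was 0.221.

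The tropomyosin family as a whole had a summed level of 191 ± 9.18 FPKM in the controls and 197 ± 36.9 FPKM after silencing (SD, n = 3 each). TPM3 took 42.0% ± 1.0 of it in sh-NC and 34.5% ± 5.33 in sh-KLF5, and TPM4 33.3% ± 1.17 and 35.7% ± 2.81. TPM1 took 1.17% ± 0.149 and 2.55% ± 0.355, so that the 2.22-fold difference concerned the least abundant member. TPM2 took 23.5% ± 1.06 and 27.3% ± 6.98. TPM3 and TPM4, tropomyosins found in most cells, were not called (log2 fold change -0.28 and 0.12, limma adjusted p = 0.132 and 0.664).

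**Figure D3:**
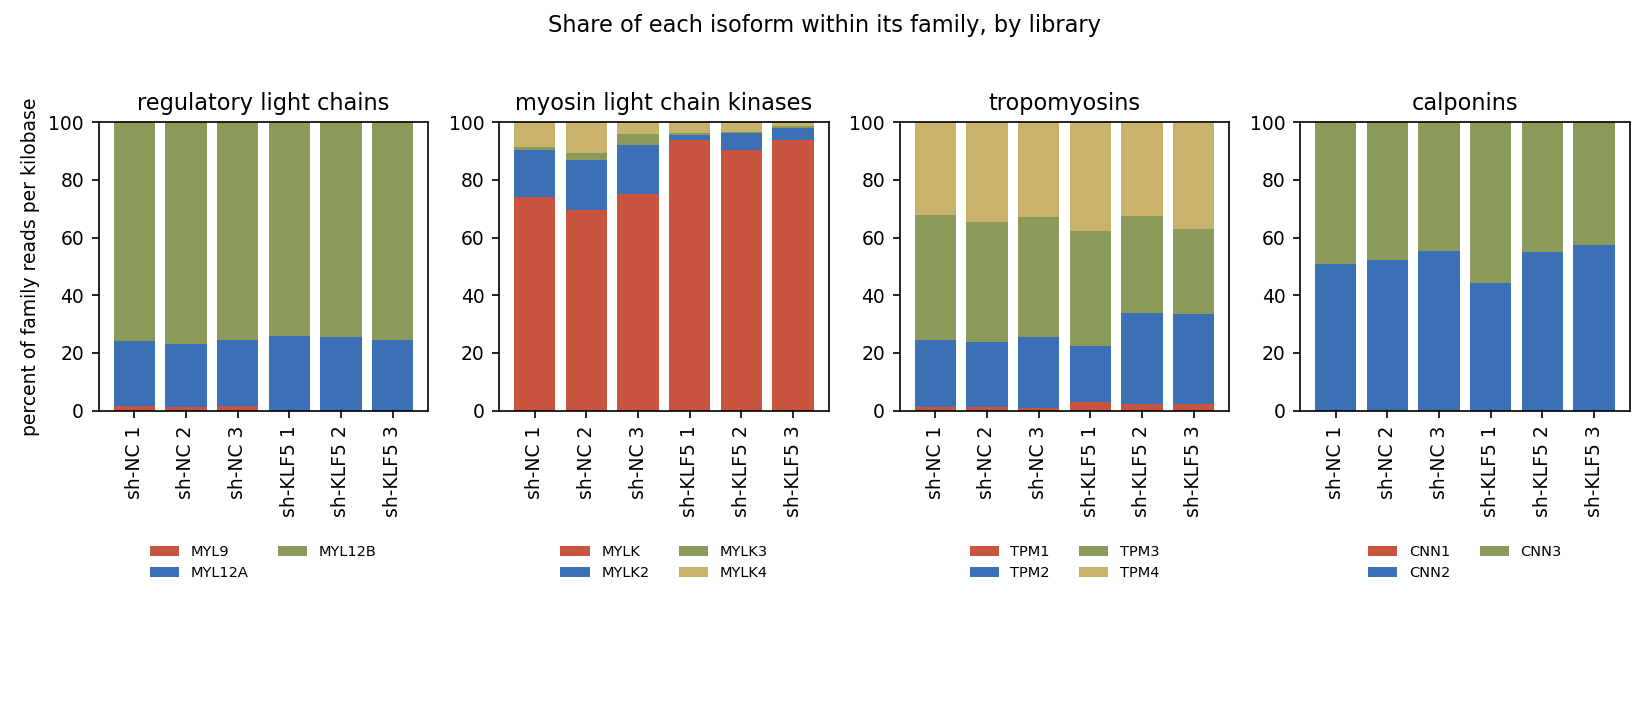
Share of each gene in its family, in percent of the summed reads per kilobase of exon (vertical axis, 0 to 100), for the 6 libraries. MYLK fills 73.0% of the kinase bars in sh-NC and 92.6% in sh-KLF5, while MYL9 and TPM1 are thin strips of at most 1.75% and 2.96%, and CNN1 is too small to be seen.

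The remaining actin binding genes of the set overlapped between the groups. TAGLN (ENSG00000149591), transgelin, an early smooth muscle marker on chromosome 11, had normalized counts of 93.1, 65.0 and 62.6 in sh-NC and 38.7, 51.4 and 77.2 in sh-KLF5. The groups overlapped through sh-KLF5 library 3, and the log2 fold change was -0.43 (standard error 0.28), and -0.20 without sh-KLF5 library 1. PCSK7 shares 11.4% of the TAGLN exonic bases from the opposite strand (log2 fold change -0.46, not called). TAGLN2, its widely expressed relative, made up 99.2% ± 0.206 of the pair per kilobase in the controls and 99.4% ± 0.126 after silencing (SD, n = 3 each).

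CNN2 (ENSG00000064666), the calponin of non-muscle cells on chromosome 19, had normalized counts of 1514, 1459 and 1910 in sh-NC and 1183, 1681 and 1974 in sh-KLF5. The groups overlapped, with the lowest and the highest value of all both in sh-KLF5, and the log2 fold change was -0.03 (standard error 0.16), and 0.17 without sh-KLF5 library 1. CNN1 (ENSG00000130176), the smooth muscle calponin on the same chromosome, had 1, 4 and 4 reads in sh-NC and 0, 1 and 0 in sh-KLF5, too few to be tested. CNN2 and CNN3 shared the family nearly equally, with 52.6% ± 2.34 for CNN2 in the controls and 52.2% ± 7.05 after silencing (SD, n = 3 each). CALD1 (ENSG00000122786), caldesmon, on chromosome 7, had normalized counts of 2725, 2541 and 2310 in sh-NC and 3332, 2544 and 2391 in sh-KLF5. Here library 1 was the highest of sh-KLF5, and the log2 fold change of 0.11 (standard error 0.13) was -0.03 without it.

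The order of the 10 genes by level per exonic length was led by the same genes in both groups. In sh-NC, TPM2 (45.0 FPKM), CNN2 (27.0) and CALD1 (15.6) came first, followed by MYL9 (3.10), TPM1 (2.23), MYLK (1.76), TAGLN (1.14) and ACTA2 (0.947), with CNN1 (0.0636) and ACTG2 (0.00528) last. The ranges of neighbouring genes overlapped only between TAGLN and ACTA2. In sh-KLF5, TPM2 (55.0 FPKM), CNN2 (26.9) and CALD1 (17.1) were again first, then TPM1 (4.95), MYLK (4.58), ACTA2 (2.79) and TAGLN (0.864). MYL9 (0.0352 FPKM) had moved from the fourth place to a group with ACTG2 (0.0266) and CNN1 (0.007), whose ranges overlapped, as did those of CNN2 with CALD1 and of TPM1 with MYLK. These levels divide by all annotated exonic bases and are too low for genes with many transcripts, such as MYLK and TPM1 (34 transcripts, 12876 bases).

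**Figure D4:**
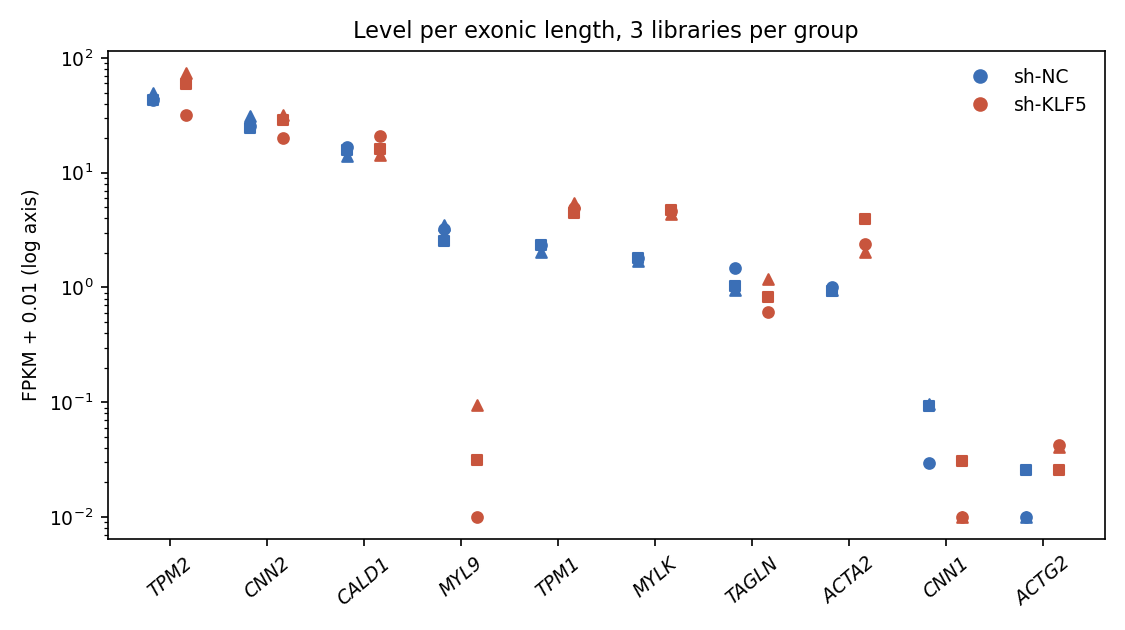
Level of the 10 genes in FPKM plus 0.01 (log axis), ordered by the sh-NC mean; points are libraries (circle 1, square 2, triangle 3), blue sh-NC and red sh-KLF5. TPM2, CNN2 and CALD1 stay on top in both groups, and MYL9 falls from 3.10 to 0.0352 FPKM.

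The other genes of the contractile apparatus and of its control were examined through 8 lists with 111 genes, 107 of them in the table and 95 tested. Of these, 6 rose (6.32%, against 1.9% of all tested genes) and 3 fell (3.16%, against 3.37%), with a median log2 fold change of 0.04 against -0.002 over all tested genes. In these lists, a gene counted as rising or falling is one called higher or lower, so smaller changes are not counted. The genes called were spread over 5 lists, and motors, common isoforms and SRF itself were not among them.

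The filament and motor genes showed no call. Among 12 tested isoforms of the families above, limma called none, as did edgeR and DESeq2 on the recovered reads, and 3 had an unadjusted p under 0.05 (median log2 fold change 0.01). ACTG1 was the most abundant in sh-NC, at 1580 FPKM in sh-NC and 1800 FPKM in sh-KLF5 (log2 fold change 0.17, limma adjusted p = 0.44). Among the 4 myosin II heavy chains none was called by the 3 tools and 1 had an unadjusted p under 0.05 (median log2 fold change -0.01). MYH9, the main non-muscle heavy chain, had 149 FPKM in sh-NC and 171 FPKM in sh-KLF5. MYH11, the smooth muscle heavy chain, had 29, 40 and 42 reads in sh-NC and 15, 21 and 19 reads in sh-KLF5 (log2 fold change -0.96, limma adjusted p = 0.069).

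Of the 22 tested genes that control phosphorylation of the light chain, 1 was called lower, against 3.37% of all tested genes, and none higher (median 0.01). PRKG1, the cGMP-dependent kinase that relaxes smooth muscle by activating myosin phosphatase, had 139, 68 and 60 reads in sh-NC and 12, 7 and 3 reads in sh-KLF5. The groups were far apart, although sh-NC library 1 was about 2 times the other controls, and the log2 fold change was -3.48 (standard error 0.44, limma adjusted p = 4.35e-05, lower in 3 of 3 libraries). RHOA, a small GTPase upstream of ROCK1 and ROCK2, was the most abundant of the list in sh-NC and did not differ beyond its spread (log2 fold change 0.00, standard error 0.12). The kinases ROCK1 (log2 fold change 0.04) and ROCK2 (-0.23) were not called. RND3 (0.60, limma adjusted p = 0.00425), DAPK3 (0.57, limma adjusted p = 0.00543) and RHOB (0.44, limma adjusted p = 0.0207) were higher but short of the fold threshold.

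SRF, its coactivators and its partners gave no call in 7 tested genes by limma, edgeR or DESeq2, with 1 unadjusted p under 0.05 (median log2 fold change 0.14). SRF had normalized counts of 1240, 1217 and 1288 in sh-NC and 1102, 1526 and 1559 in sh-KLF5, which overlapped, and the partner ELK1 was the most abundant of the list in sh-NC. Among 17 other targets of SRF and MRTF, 2 rose, against 1.9% of all tested genes, and none fell (median 0.18). FHL2, an actin-linked LIM domain coactivator, had normalized counts of 895, 877 and 906 in sh-NC and 2351, 1708 and 1883 in sh-KLF5 (log2 fold change 1.14, standard error 0.13, limma adjusted p = 1.39e-05). Without sh-KLF5 library 1, the log2 fold change of FHL2 was 1.01, close to the fold threshold. EGR1, an immediate early transcription factor, had 565, 454 and 515 in sh-NC and 1112, 1351 and 1643 in sh-KLF5 (log2 fold change 1.41, standard error 0.15, limma adjusted p = 5.99e-06). Both were higher in 3 of 3 sh-KLF5 libraries. FLNA, which cross-links actin and was the most abundant target in sh-NC at 214 FPKM, had 213 FPKM in sh-KLF5, where CYR61 had 220 FPKM, and was not called (log2 fold change -0.05, limma adjusted p = 0.89).

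Among 17 tested cross-linkers and anchors of stress fibres, 2 rose and 2 fell, against 1.9% and 3.37% of all tested genes (median -0.06). FLNC, the muscle filamin, fell from normalized counts of 632, 523 and 526 to 146, 143 and 242 (log2 fold change -1.70, standard error 0.19, limma adjusted p = 1.16e-05). PDLIM1, a PDZ and LIM domain adaptor of alpha-actinin, fell from 1030, 1009 and 1100 to 461, 487 and 443 (log2 fold change -1.17, standard error 0.12, limma adjusted p = 4.02e-06). Its relative PDLIM4 rose (log2 fold change 1.03, limma adjusted p = 8.83e-05), as did LIMA1, an actin bundling protein (1.01, limma adjusted p = 5.9e-05). Both lay close to the fold threshold, and LIMA1 was at 0.97 without sh-KLF5 library 1 and PDLIM4 at 0.95 without library 3.

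Of 18 late smooth muscle genes listed, 15 were in the table and 8 were tested (median -0.56). By the rule with the fold threshold, 1 was called higher, against 1.9% of all tested genes, and none lower. At any fold, 4 had an adjusted p under 0.05. NEXN, an actin filament protein of muscle, had normalized counts of 80.1, 80.8 and 56.2 in sh-NC and 138, 113 and 199 in sh-KLF5 (log2 fold change 1.02, standard error 0.24, limma adjusted p = 0.0083), but 0.85 without sh-NC library 3 and 0.79 without sh-KLF5 library 3. SYNM, an intermediate filament protein and the most abundant of the list in sh-NC (8.10 FPKM, against 4.42 FPKM for SMTN), had 4.93 FPKM in sh-KLF5, where SMTN had 5.57 FPKM. SYNM had a log2 fold change of -0.73 (limma adjusted p = 0.000799), short of the fold threshold. JPH2 (-0.87, limma adjusted p = 0.00159) and TNS1 (-0.73, limma adjusted p = 0.0135) were also lower and short of it. DES, PDLIM3 and PLN had at most 3 reads in every library. Of the 11 genes of the TGF-beta inputs (median 0.23), the receptor TGFBR2 had a log2 fold change of 0.96 (limma adjusted p = 0.000156) and stayed under the fold threshold, and TGFB1 was the most abundant of the list in sh-NC (0.23, limma adjusted p = 0.356).

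**Figure D5:**
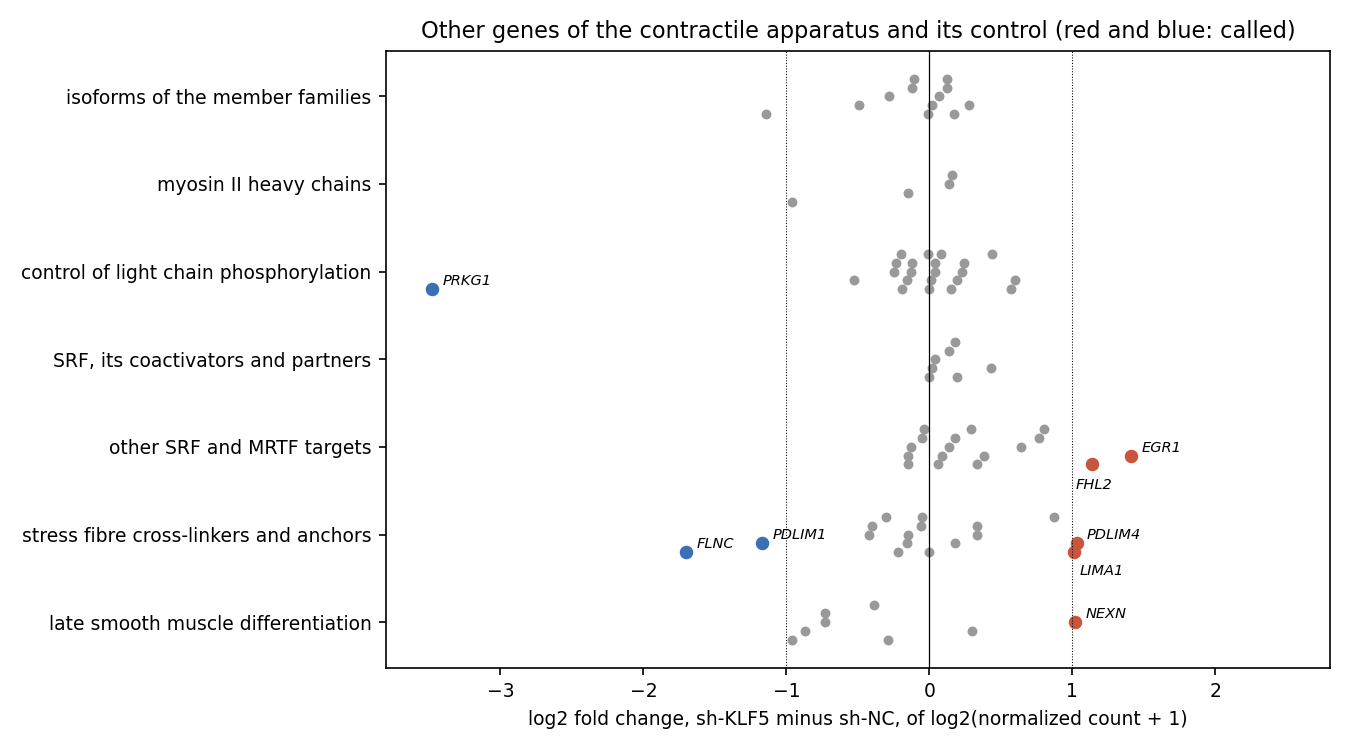
Log2 fold change (horizontal axis, sh-KLF5 minus sh-NC, on log2(normalized count + 1)) of the tested genes in 7 of the 8 lists, without the TGF-beta inputs; each point is a gene, red called higher, blue called lower, grey not called, and dotted lines mark the fold threshold. PRKG1 stands at -3.48 and EGR1 at 1.41, while isoforms, heavy chains and SRF partners hold no called gene.

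Beside the higher ACTA2, MYLK and TPM1, markers of pericytes and vascular smooth muscle, cells in which the contractile genes are high, changed in both directions. The median log2 fold change of the 6 tested was -0.55. ABCC9 was called higher (log2 fold change 1.67, limma adjusted p = 9.35e-05), as were 1.9% of all tested genes. CSPG4 (-1.18, limma adjusted p = 0.00476) and NOTCH3 (-1.23, limma adjusted p = 0.00132) were called lower, as were 3.37% of all tested genes. MYH11 was below its controls in every sh-KLF5 library but not called (-0.96, limma adjusted p = 0.069). The summed level of the list ranged from 12.6 to 13.7 FPKM in sh-NC and from 10.8 to 13.0 FPKM in sh-KLF5. DES had at most 3 reads everywhere, and the part of these markers in the higher contractile genes was not tested. Of the endothelial list, 2 genes were tested, and TEK had 8, 1 and 1 reads in sh-NC and 17, 11 and 12 in sh-KLF5. TEK was called higher by limma (adjusted p = 0.0442), as were 1.9% of all tested genes, but not by edgeR or DESeq2. The summed level of this list ranged from 0.641 to 0.665 FPKM in sh-NC and from 0.402 to 0.713 FPKM in sh-KLF5. The leukocyte list, carried by CD14, ranged from 4.88 to 7.29 FPKM and from 5.95 to 12.6 FPKM, and held no called gene by limma, edgeR or DESeq2, with 1 unadjusted p under 0.05.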

How the data were processed

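Poly(A) RNA of 3 sh-NC and 3 sh-KLF5 libraries of SKOV3 cells was analysed, and groups and replicate numbers were taken from the sample labels. The submitters' processing notes name HISAT2 2.0.5, featureCounts 1.5.0-p3, DESeq2 1.20.0 and hg38, without their roles. The authors deposited a normalized signal per gene and library, which is the count of reads on the gene divided by 1 factor per library. The smallest value above 0 of a library was taken as 1 read, and 100% of values were whole multiples of it. The deposited table also holds the authors' group means, fold changes and p-values, which were not used. The exonic length per gene in the deposited table was used for FPKM.

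Genes were kept by filterByExpr of edgeR 4.0.16 (minimum count 10) and compared with limma 3.58.1 (trend and robust empirical Bayes, R 4.3.3) on log2(normalized count + 1), which understates changes of genes with few reads, with Benjamini-Hochberg adjustment over the 15803 genes kept. Alternatives were edgeR's quasi-likelihood test and DESeq2 1.42.0 on the recovered reads, on which edgeR called 312 genes higher and 528 lower, TMM factors, library size only, other filters and pseudocounts, the replicate block, and leaving out each library in turn. The steps were tested on simulated data. Exons and overlaps came from GENCODE release 29, and promoter windows (250 bases before to 50 after the start) from RefSeq on GRCh38. Protein sequences were not used here. Intervals and limits cover counting error only.

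The 10 genes, the lists, the rule for the genes named and the tests were chosen with earlier results of these data known. The rule named all 10 genes, their isoforms with at least 10 reads in a library, and overlapping genes. From each list it named the called genes and the most abundant gene in sh-NC. Genes outside the rule, such as MYH11, MYOCD, SRF, SMTN, TGFBR2, ROCK1 and ROCK2, were added after their values were seen. So were JPH2, TNS1, RND3, DAPK3, RHOB, COL1A1 and LUM. Some items that the rule would name are not reported here.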

Additional observations from a re-analysis of the deposited data

How the results depend on the processing

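The 8 tested contractile genes kept their log2 fold changes within the spread between libraries in all 48 values with 1 library left out and in 69 of 71 other values, the exceptions being MYL9 with a pseudocount of 0.1 (-7.55) and of 5 (-4.52). The sign of TPM2, CALD1 and CNN2, which overlapped between the groups, changed with the library left out. Genes called lower numbered 533, but 811 when no gene was filtered out and 231 under a minimum of 10 reads in every library, which removes genes near 0 in sh-KLF5 such as MYL9 and moved the share of lower calls from 63.9% to 48.9%. Pathway genes called lower numbered 3, 7 without a filter, and 2 under that minimum, where PRKG1 was not tested and the light chain phosphorylation list had no call. With 1 library left out, 253 to 337 genes were called higher and 461 to 620 lower, and 4 to 6 pathway genes higher and 3 to 4 lower. The 9 called pathway genes kept their call in 47 of 54 such values and in 79 of 80 others in which they were tested, NEXN, PDLIM4 and LIMA1 losing it. Of the shares within families, 10 of 18 moved without division by exon length. The fit with the replicate block called 327 genes higher and 567 lower, with 6 pathway genes higher and 3 lower, and left the KLF5 log2 fold change at -1.53. Equal replicate numbers marked no pairs, since deviations of same-numbered libraries correlated at 0.0331 to 0.059. Genes with at most 4 reads, such as ACTG2 and CNN1, could not be compared at this depth.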
